A study of Mus musculus with 384 samples.

Results

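Wnt targets and secreted Wnt antagonists were followed as a set of 10 genes, taken by name from the 23422 genes in the tables. Axin2, Lef1, Nkd1 and Notum are genes that canonical Wnt signalling induces, and Sfrp1, Sfrp2, Frzb, Dkk2, Dkk3 and Wif1 encode secreted proteins of the antagonist families. All 10 were present in the tables of counts and among the 22276 genes kept with the filtered cells.

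The cells were sorted from adult mouse lung, depleted of CD31, CD45, CD11b and TER119 cells. They came from 2 Lgr5-CreERT2;R26-Tom mice after tamoxifen, sorted for Tom, and from 2 Lgr6-EGFP-CreERT2 mice, sorted for GFP. The labels give an age of 7 to 10 weeks for most of the study's mice and not for each animal. Each line reports where its own Lgr promoter is or was active, so that the sort, and in the Lgr5 line the induced Cre, sets which cells were seen.

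Wnt ligands stabilise beta-catenin, which joins TCF/LEF factors at target genes, and many of these targets feed back on the pathway. Secreted antagonists act outside the cell: sFRPs and Wif1 bind the ligands, and some Dkk proteins, such as Dkk2, act at the Lrp coreceptors. In the lung, mesenchymal cells are a source of both ligands and antagonists, and the epithelium beside them responds to Wnt.

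The members lie on 6 chromosomes in GENCODE vM21 (GRCm38), with Lef1, Sfrp2 and Dkk2 on chromosome 3, Nkd1 and Sfrp1 on chromosome 8 and Axin2 and Notum on chromosome 11. RefSeq promoters on GRCm38.p6, 250 bases before to 50 after a start, were at hand for 7 members, and Notum, Sfrp1 and Dkk3 had no entry. They were searched on both strands for the TCF/LEF motif CTTTGWW, where W is A or T, so that it has 4 forms. At least 1 form was present in 16.9% of all 32851 promoters, and in 1 of the 10 promoters of members, an inner start of Lef1 that holds CTTTGTA on the reverse strand, before the start. A match is a description of the letters only, and the other 9 windows have no match. Nkd1 and Wif1 had the widest gaps between the lines in mean log2(TPM + 1), defined below. Their promoters, and those of Axin2, a target in many tissues, and of the Lef1 start with the match, are printed with the motif in capitals. They lie on the plus strand at chr11:108920099-108920398 (Axin2), chr3:131156044-131156343 (Lef1), chr8:88527383-88527682 (Nkd1) and chr10:121033754-121034053 (Wif1). In GENCODE the last 50 bases of the Axin2 window and the last 94 of the Wif1 window are exon, all 300 bases of the Lef1 window lie inside Lef1 and outside its exons, and the Nkd1 window lies inside Nkd1, with 30 bases in an exon.
Axin2: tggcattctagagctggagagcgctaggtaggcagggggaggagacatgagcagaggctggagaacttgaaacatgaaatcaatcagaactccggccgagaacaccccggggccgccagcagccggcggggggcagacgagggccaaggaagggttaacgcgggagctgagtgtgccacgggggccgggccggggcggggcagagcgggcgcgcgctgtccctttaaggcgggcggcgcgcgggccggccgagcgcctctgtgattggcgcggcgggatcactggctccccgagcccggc
Lef1: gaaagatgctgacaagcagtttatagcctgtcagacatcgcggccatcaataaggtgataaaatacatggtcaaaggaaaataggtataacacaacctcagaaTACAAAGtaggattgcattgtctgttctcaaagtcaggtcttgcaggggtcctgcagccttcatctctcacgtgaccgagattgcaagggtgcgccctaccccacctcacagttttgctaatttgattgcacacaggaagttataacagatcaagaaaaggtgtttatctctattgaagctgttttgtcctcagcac
Nkd1: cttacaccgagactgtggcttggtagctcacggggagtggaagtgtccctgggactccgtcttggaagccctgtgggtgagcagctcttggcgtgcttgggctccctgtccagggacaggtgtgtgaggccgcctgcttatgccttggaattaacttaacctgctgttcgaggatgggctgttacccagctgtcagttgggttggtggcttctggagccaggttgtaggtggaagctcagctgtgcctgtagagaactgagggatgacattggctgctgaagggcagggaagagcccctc
Wif1: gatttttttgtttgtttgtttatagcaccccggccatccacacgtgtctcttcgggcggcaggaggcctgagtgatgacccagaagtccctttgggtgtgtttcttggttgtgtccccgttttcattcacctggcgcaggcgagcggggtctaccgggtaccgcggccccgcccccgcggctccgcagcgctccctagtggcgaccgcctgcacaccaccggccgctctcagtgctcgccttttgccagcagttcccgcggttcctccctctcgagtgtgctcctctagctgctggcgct

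The authors' filter kept 29 and 28 cells of Lgr5 mouse 1 and 2, and 50 and 75 cells of Lgr6 mouse 1 and 2, out of 95 wells with a single cell per mouse. The mouse was the replicate. The sums over these cells reached 9874249 and 13198680 counts for Lgr5, and 28875278 and 124650544 for Lgr6, and single kept cells held 9748 to 4538878. No molecular identifiers were used, so that counts are reads and the intervals given here cover counting error only. A level is the mean over cells of log2(TPM + 1), where TPM is the gene's share of a cell's transcripts after division by transcript length, and a cell has a gene when its count is above 0. Acta2-high cells are those with an Acta2 log2 value of at least 11, which 66 cells passed, 27 and 38 of the Lgr6 mice and 1 of the Lgr5 line. The nearest values on either side of this threshold were 10.97 and 11.03, and 32 cells lay within 1 of it.

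The lines stood apart in several markers before any member was compared, and the part of these differences in the results was not tested. The study's filter asked for tdTomato (a R26-Tom TPM above 32), so that its presence in every kept cell is no result. Kept cells had means of 10.81 and 10.91 in the Lgr5 mice against 11.07 and 10.98 in the Lgr6 mice, and 27 of 45 and 12 of 20 removed Lgr6 wells had a count of it, although the labels give no R26-Tom allele for the Lgr6 line. Erythroid genes summed to 318 and 344 CPM (counts as a share of the library, not divided by length) in the Lgr5 mice, with Hbb-bh1 the most abundant. The Lgr6 mice had 0.104 CPM, all of it Hbb-bh1, and 2.16 CPM, with Alas2 the highest and Hbb-bh1 at 0. Hbb-bh1 reached a log2 value of 5 in 29 of 29 and 26 of 28 Lgr5 cells, but in 1 of 50 and 0 of 75 Lgr6 cells, so that this feature and the line cannot be told apart. All 8 epithelial genes were present in each mouse, with 48100 and 28400 summed CPM in the Lgr5 mice against 1260 and 10700 in the Lgr6 mice, nearly all of it Sftpc. As a mean over cells of the summed TPM, which gives each cell the same weight, the gap was far smaller, at 24900 and 29700 against 20200 and 17200. The 8 smooth muscle genes, all present, summed to 5370 and 1280 CPM in the Lgr5 mice (Des and Acta2 highest; 996.13 in mouse 1 without its Acta2-high cell) and to 14300 and 13300 CPM in the Lgr6 mice (Acta2 highest). Among immune genes nearly all counts were of Lyz2 and Cd3e was at 0 in each mouse, with sums of 4560, 7120, 614 and 3300 CPM in the order Lgr5 mouse 1 and 2, then Lgr6 mouse 1 and 2, and another order in mean summed TPM (1390, 4450, 5510 and 3650). General mesenchyme genes, all 5 present with Col3a1 the highest, summed to 3170, 4890, 6240 and 4280 CPM in that order (3050, 4000, 3570 and 3200 in mean summed TPM), and pericyte genes to 512, 442, 715 and 617 CPM. Alveolar fibroblast genes, led by Npnt, summed to 225.6, 161.3, 307 and 483 CPM, endothelial genes, with Pecam1, on which the filter set a limit, at 0 in each mouse, to 0, 83.6, 73.9 and 2.86 CPM (0, 3, 3 and 1 of 4 present), and mesothelial genes to 2.23, 3.64, 0.208 and 0.016 CPM.

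The first comparison set the sorted Lgr5 line beside the sorted Lgr6 line, each sorted by the reporter of its own Lgr gene. Mean levels of Lgr5 were 5.29 and 4.69 in the Lgr5 mice against 0.29 and 0.73 in the Lgr6 mice. Those of Lgr6 overlapped, at 1.56 and 1.77 against 1.15 and 1.61, so that the lines were not apart in Lgr6 itself. Wif1, Notum, Lef1 and Dkk2 had a higher mean in both Lgr5 mice than in either Lgr6 mouse, and Nkd1, Dkk3 and Sfrp2 had a lower one. The means of Axin2, Sfrp1 and Frzb overlapped. Over the 19715 genes with any value, 26.5% lay higher in both Lgr5 mice and 15.7% higher in both Lgr6 mice, 42.3% in either direction, so that a count of 4 and 3 of 10 members is to be read against a background where such separation is common. With 2 mice a line, the smallest two-sided p of an exact permutation test is 0.3333, so that it cannot reach 0.05.

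**Figure D1:**
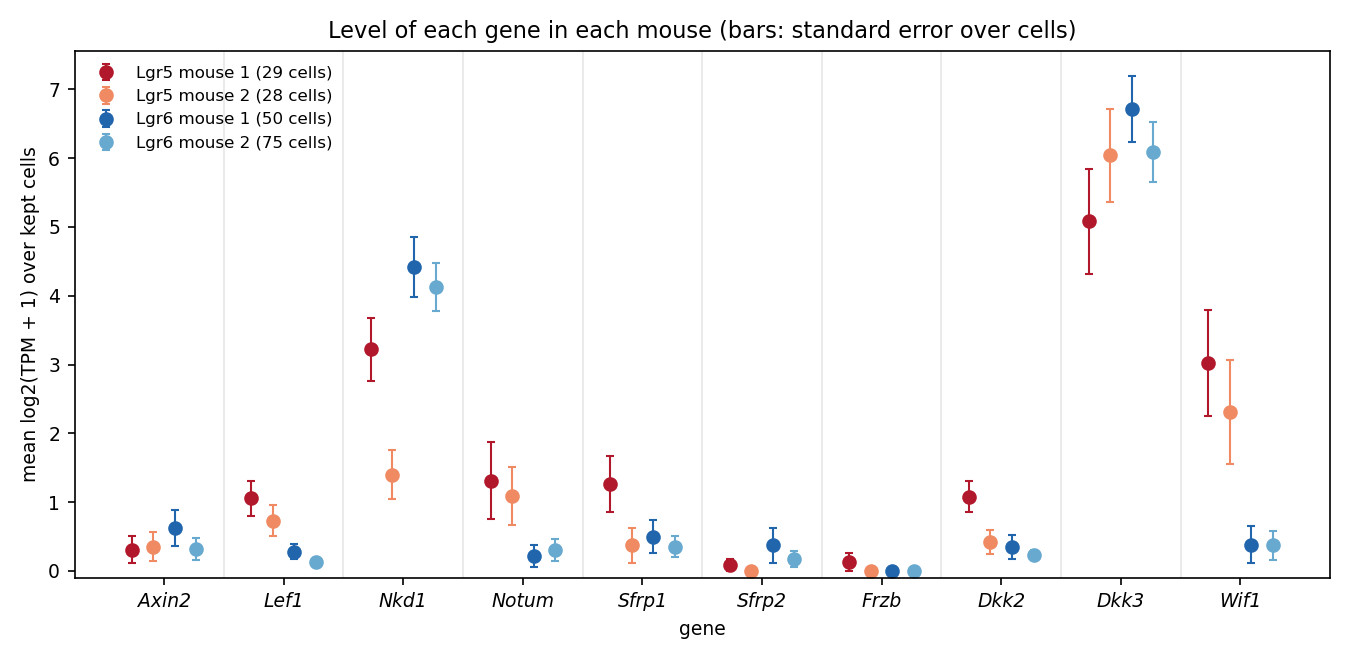
Mean log2(TPM + 1) of the 10 genes (y axis) over the kept cells of each mouse; bars are the standard error over cells of that mouse, which is not an error between mice. Dkk3 stands highest, from 5.08 to 6.72, Nkd1 runs from 1.40 to 4.42, and Wif1 lies at 3.02 and 2.31 in the Lgr5 mice against 0.38 and 0.37 in the Lgr6 mice.

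Among the targets, Nkd1, which binds Dishevelled and restrains the pathway, was the most abundant. Its means were 3.22 and 1.40 in the Lgr5 mice against 4.42 and 4.13 in the Lgr6 mice, that is 2.31 ± 1.28 against 4.27 ± 0.20 (SD, n = 2 mice). Both Lgr6 mice lay above both Lgr5 mice, and Lgr5 mouse 2 was by far the lowest. Nkd1 was nevertheless widespread, in 86.2% and 53.6% of Lgr5 cells and 78% and 82.7% of Lgr6 cells, and in 71.4%, 44%, 78.4% and 74% after each cell was thinned to 99000 counts. Over the cells that had it the means were 3.73 and 2.62 against 5.67 and 5.0, so that the gap lay also in the amount per cell.

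Notum encodes a secreted carboxylesterase that removes the lipid of Wnt ligands, so that it is both a target and an antagonist. Its means were 1.31 and 1.09 in the Lgr5 mice against 0.22 and 0.30 in the Lgr6 mice (1.20 ± 0.16 against 0.26 ± 0.06, SD, n = 2). There was no overlap between lines. It was present in 5 of 29 and 6 of 28 Lgr5 cells, or 17.2% (exact Clopper-Pearson 95% interval 5.85 to 35.8) and 21.4% (8.30 to 41). In the Lgr6 mice 2 of 50 and 4 of 75 cells had it, or 4.0% (0.488 to 13.7) and 5.33% (1.47 to 13.1). The intervals of the lines overlap, and thinned shares of 17.9% and 16% against 5.41% and 4.11% kept the same order. Over the cells with Notum the means were 7.61 and 5.10 in the Lgr5 mice against 5.49 and 5.64 in the Lgr6 mice, which overlapped, and single cells ran from 2.65 to 9.60.

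Lef1 encodes one of the TCF/LEF factors and Axin2 a scaffold of the complex that destroys beta-catenin. Lef1 means were 1.06 and 0.73 in the Lgr5 mice against 0.28 and 0.13 in the Lgr6 mice (0.89 ± 0.23 against 0.21 ± 0.10, SD, n = 2). The lines did not overlap, but the counts were near the limit of detection: 55 of the 63 cells with Lef1 held 1 to 3 counts, and 21 of the 63 had a TPM of 0. These were 2 of the 26 Lgr5 cells and 19 of the 37 Lgr6 cells with Lef1, and they enter the means as 0. The part of this in the gap was not tested. Lef1 was present in 48.3% and 42.9% of Lgr5 cells and 24% and 33.3% of Lgr6 cells, and in 28.6%, 28%, 10.8% and 2.74% after thinning. Axin2, the member most often used as a general readout of the pathway, was sparse in both lines: 3, 4, 8 and 9 cells of the mice in the order above had it, with means of 0.31, 0.35, 0.62 and 0.32. The lines overlapped, and the shares of 10.3% and 14.3% against 16% and 12% lay within each other's intervals. After thinning the shares were 7.14% and 12% against 5.41% and 6.85%, from 2, 3, 2 and 5 cells, which no longer overlapped, so that no order is given for Axin2.

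**Figure D2:**
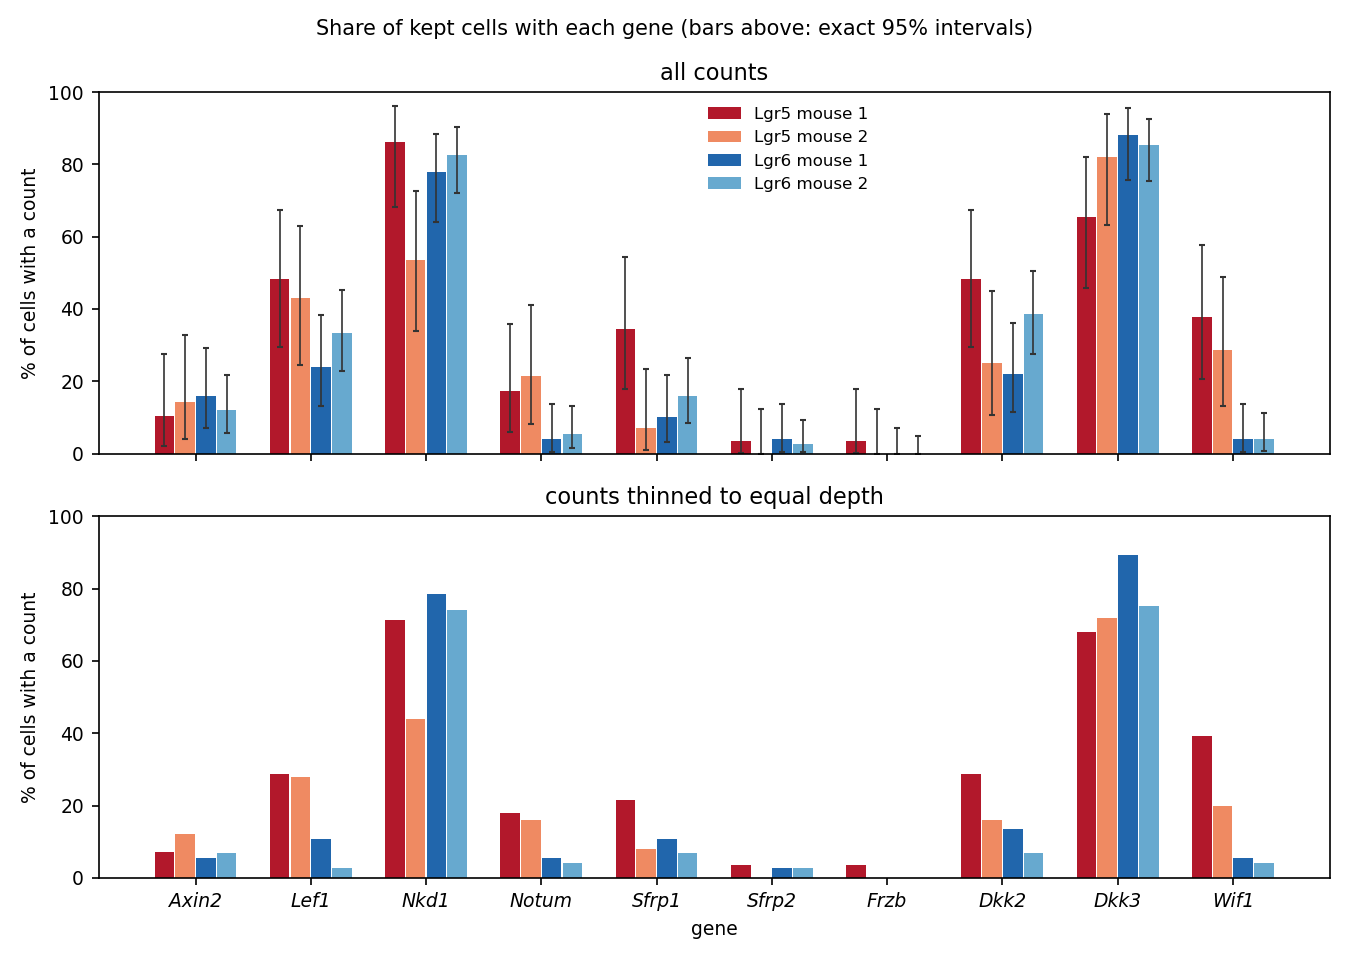
Percent of kept cells with a count of each gene (y axis) in each mouse, from all counts with exact 95% intervals (upper panel) and after thinning each cell to 99000 counts (lower panel). The Wif1 bars reach 37.9% and 28.6% in the Lgr5 mice and 4.0% in each Lgr6 mouse, and thinning lowers Lef1 in Lgr6 mouse 2 from 33.3% to 2.74%.

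Of the antagonists, Wif1, which binds Wnt ligands directly, differed most between the lines in level. Its means were 3.02 and 2.31 in the Lgr5 mice against 0.38 and 0.37 in the Lgr6 mice, that is 2.66 ± 0.51 against 0.38 ± 0.00 (SD, n = 2), a gap of 2.29. There was no overlap between lines, and the gap was larger than the spread within either. Wif1 was present in 11 of 29 and 8 of 28 Lgr5 cells, or 37.9% (20.7 to 57.7) and 28.6% (13.2 to 48.7). In the Lgr6 mice 2 of 50 and 3 of 75 cells had it, or 4.0% (0.488 to 13.7) and 4.0% (0.833 to 11.2). After thinning the shares were 39.3% and 20% against 5.41% and 4.11%, again apart. The gap lay in the share of cells: over the cells with Wif1 the means were 7.97 and 8.07 in the Lgr5 mice against 9.47 and 9.33 in the Lgr6 mice, the opposite order. Among Lgr5 cells with an Epcam log2 value of at least 1, Wif1 was present in 0 of 7 and 0 of 8, against 11 of 22 and 8 of 20 of the rest, so that the Lgr5 cells with Wif1 were not those with Epcam. Wif1 and Notum shared some of their cells: in the Lgr5 mice 2 of 11 and 3 of 8 Wif1 cells had Notum. The same cells were 2 of 5 and 3 of 6 Notum cells, where 1.90 and 1.71 cells would have both if the genes were independent.

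Dkk3, a divergent Dkk protein, was the most abundant member in each mouse on the TPM scale. Its means were 5.08 and 6.04 in the Lgr5 mice against 6.72 and 6.09 in the Lgr6 mice (5.56 ± 0.68 against 6.41 ± 0.45, SD, n = 2). The lines did not overlap, but Lgr5 mouse 2 and Lgr6 mouse 2 lay close together, at 6.04 and 6.09. Dkk3 was present in 65.5% and 82.1% of Lgr5 cells and 88% and 85.3% of Lgr6 cells, and over those cells the means were 7.75, 7.35, 7.64 and 7.14, which overlapped. In Lgr6 cells with an Epcam log2 value of at least 1 it was present in 0 of 3 and 0 of 4, against 44 of 47 and 64 of 71 of the rest. In Lgr5 cells with Epcam it was present in 3 of 7 and 5 of 8, against 16 of 22 and 18 of 20 of the rest.

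Dkk2, which acts at Lrp6, had means of 1.08 and 0.42 in the Lgr5 mice against 0.35 and 0.23 in the Lgr6 mice. There was no overlap between lines, and 43 of the 61 cells with Dkk2 held 1 to 3 counts. A TPM of 0 stood beside the count in 0 of the 21 Lgr5 cells and 20 of the 40 Lgr6 cells with Dkk2. Such cells enter the means as 0, and the part of this in the gap was not tested. Dkk2 was present in 48.3% and 25% of Lgr5 cells and 22% and 38.7% of Lgr6 cells, which overlapped. After thinning it was in 28.6% and 16% against 13.5% and 6.85%, which did not. In summed counts the lines overlapped, at 3.07 and 1.3 CPM against 59.7 and 0.869 CPM. There, 1 cell of Lgr6 mouse 1 held 1644 of the 1670 Dkk2 counts of that mouse, with a log2 value of 7.90. CPM of members are over libraries scaled by edgeR's TMM factors, unlike the CPM of the marker lists.

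The Sfrp genes, whose products carry a Frizzled-like domain that binds Wnt ligands, were each found in fewer cells than Dkk3. Sfrp1 means were 1.26 and 0.37 in the Lgr5 mice against 0.50 and 0.35 in the Lgr6 mice, with Lgr5 mouse 1 alone high and the lines overlapping. It was present in 34.5% and 7.14% of Lgr5 cells and 10% and 16% of Lgr6 cells (21.4%, 8.0%, 10.8% and 6.85% after thinning). Sfrp2 was found in 1 and 0 Lgr5 cells and in 2 and 2 Lgr6 cells, with means of 0.09, 0, 0.37 and 0.17. A count of 0 of 28 cells leaves an upper bound of 12.3% for the share in Lgr5 mouse 2. Frzb was found in 1 cell of Lgr5 mouse 1 with 5 counts, and in 0 of 28, 0 of 50 and 0 of 75 cells of the other mice, where the upper bounds are 12.3%, 7.11% and 4.80%. No fold is given for Frzb, since 1 cell holds all its counts, and it was not tested.

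By level in TPM the order was the same at the top in both lines, Dkk3 first. In the Lgr5 line Wif1 (2.66) and Nkd1 (2.31) followed and did not differ beyond their spread, and in the Lgr6 line Nkd1 (4.27) followed and all others lay at 0.47 or below. A few cells held most counts of the rarer genes. In Lgr6 mouse 2 a pair of cells held 697 and 439 of 1250 Axin2 counts, and a single cell of Lgr6 mouse 1 held 1089 of 1160 Sfrp1 counts and a single cell 1897 of 1929 Sfrp2 counts. For Lgr5 mouse 1 the cell with the most held 515 of 553 Sfrp1 counts. A pair of cells of Lgr5 mouse 2 held 2661 and 1181 of 4215 Wif1 counts. Lef1, Nkd1 and Dkk3 were spread more evenly, with at most 37.9% of the counts of a mouse in 1 cell.

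**Figure D3:**
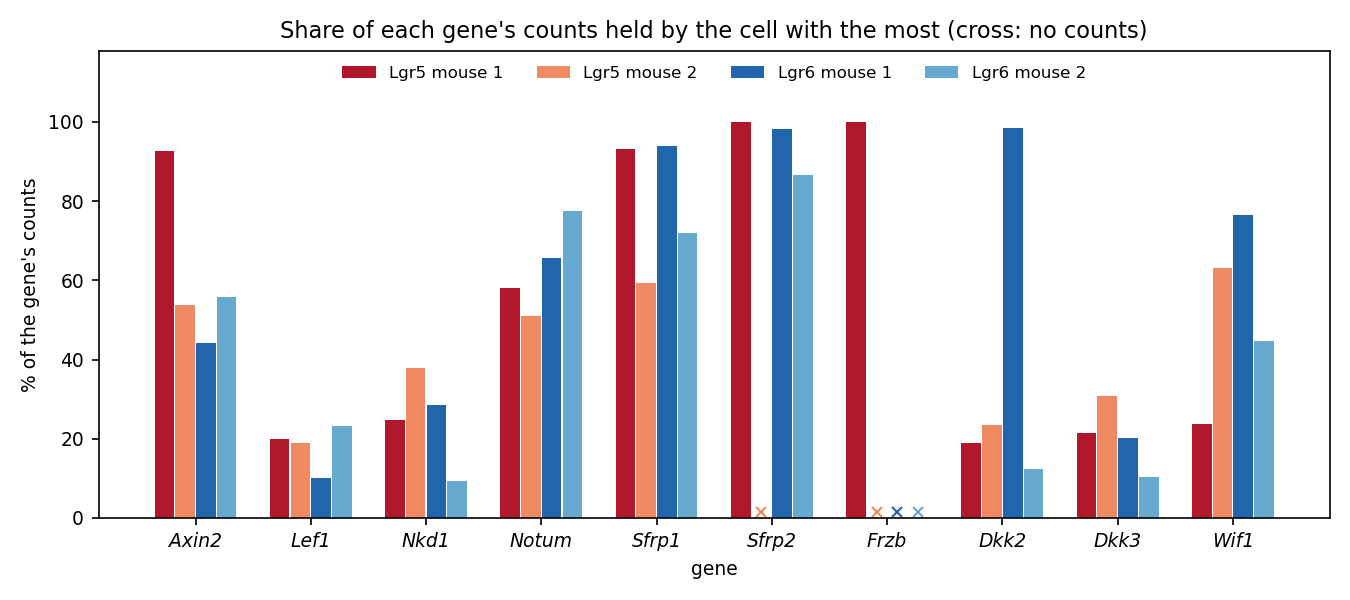
Percent of each gene's counts (y axis) that the cell with the most holds, in each mouse. Dkk2 in Lgr6 mouse 1 and Sfrp2 in Lgr6 mouse 1 reach 98.4% and 98.3%, whereas Dkk3 lies between 10.2% and 30.7%.

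Counts of the kept cells were then summed per mouse and tested with edgeR over all genes. CPM given with these sums are over libraries scaled by TMM within each comparison, so that the same cells can have another CPM in another comparison. Fewer cells with a gene and less of its RNA per cell cannot be told apart in such sums. Frzb did not pass the filter on low counts in any of the 3 comparisons, so that 9 of 10 members were tested. Between the lines, 0 of 9 members passed an adjusted p of 0.05 in edgeR, where 0% of 14086 genes did and 1312 had an unadjusted p under 0.05, Nkd1 and Sfrp2 among them. On the same sums DESeq2 called 564 genes (4%) and 1 member, Sfrp2, and limma on the means of log2(TPM + 1) called 634 (4.5%) and 1 member, Wif1. The median log2 fold change of Lgr5 over Lgr6 was -0.08 for the 9 members and -0.05 for all genes.

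Nkd1 had 53.9 and 18.3 CPM in the Lgr5 mice against 145.6 and 124.3 CPM in the Lgr6 mice. The lines did not overlap, and the log2 fold change was -1.91 (SE 0.71), with an adjusted p of 0.456 in edgeR. Wif1 had 106.8 and 321 CPM in the Lgr5 mice against 88.6 and 13 CPM in the Lgr6 mice. These values did not overlap either, though Lgr5 mouse 1 and Lgr6 mouse 1 were close, and the log2 fold change was 2.08 (SE 0.99, adjusted p 0.609 in edgeR), which ran from 1.16 to 4.05 without a mouse. With limma on the cell means the Wif1 difference of 2.29 (SE 0.40) had an adjusted p of 0.00554, and over all alternatives the adjusted p of Wif1 ran from 0.00554 to 0.841. Notum had 46.7 and 9.99 CPM in the Lgr5 mice against 2.29 and 5.45 CPM in the Lgr6 mice, with a log2 fold change of 2.86 (SE 1.34, adjusted p 0.600 in edgeR). Dkk3 had 461 and 484 CPM in the Lgr5 mice against 544 and 451 CPM in the Lgr6 mice, which overlapped, with a log2 fold change of -0.08 (SE 0.37). Its direction turned under 4 of 13 alternatives, so that no direction is given for Dkk3 from the sums. Sfrp2 had 4 and 0 counts in the Lgr5 mice against 1929 and 296 in the Lgr6 mice, from 5 cells in all, and DESeq2 gave it -7.50 (SE 1.80, adjusted p 0.00207) against -7.58 (SE 2.42, adjusted p 0.383) in edgeR. Over the alternatives its adjusted p ran from 0.00207 to 1. Lef1, Axin2, Sfrp1 and Dkk2 had fitted values of 1.67, -1.04, 0.21 and -3.80, and without Lgr6 mouse 1 Dkk2 turned to 1.38, without Lgr5 mouse 1 Sfrp1 turned to -3.29 and without Lgr6 mouse 2 Axin2 turned to 0.08.

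**Figure D4:**
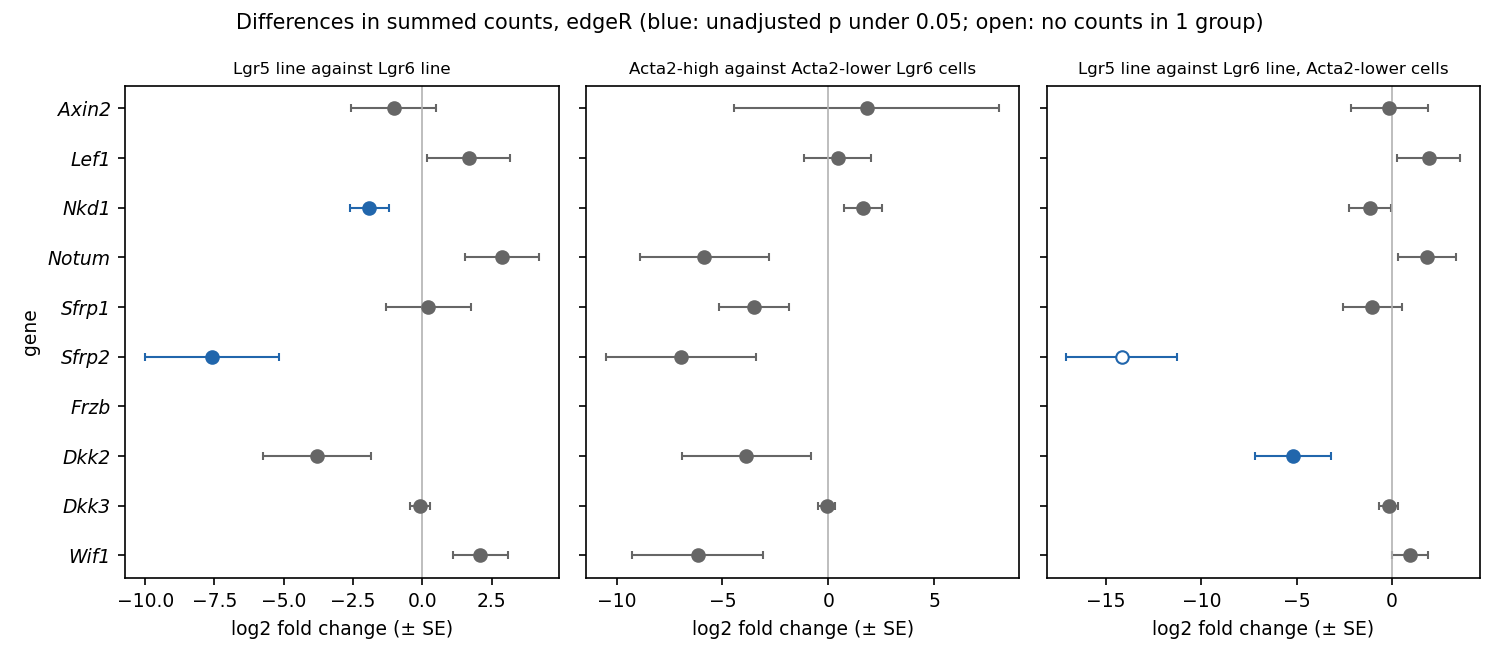
Log2 fold changes in summed counts (x axis, bars are the SE of edgeR's fit) of the 9 tested genes in the 3 comparisons; positive values are higher in the Lgr5 line, or in Acta2-high cells in the middle panel, and an open symbol marks a gene with no counts in 1 group, whose fitted value is no bound. Nkd1 at -1.91 and Sfrp2 have an unadjusted p under 0.05 between the lines, and Dkk3 lies near 0 in all 3 panels.

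The second comparison divided the Lgr6 line by Acta2, which encodes smooth muscle actin, within each mouse: 27 Acta2-high and 23 lower cells of mouse 1, and 38 and 37 of mouse 2. Acta2 chose these classes and is no result. The epithelial genes differed with them, at 7.42 and 2.73 summed CPM in the high cells (6 of 8 genes, Epcam at 0 in both) against 3230 and 21900 CPM in the lower cells (8 of 8, Sftpc highest), and so did other lists. Immune genes had 11.5 and 17.7 CPM in the high cells (2 and 3 of 5 genes, Lyz2 highest) against 1560 and 6730 in the lower cells (3 and 4 of 5), nearly all of it Lyz2, with Cd3e at 0 throughout. Alveolar fibroblast genes had 166.33 and 62.9 CPM (4 and 6 of 8, Npnt highest) against 528 and 923 (8 of 8, Pdgfra and Npnt highest), and endothelial genes 0 and 0 against 190.13 and 5.85 CPM (3 and 1 of 4, Kdr highest). The part of these lists in the result was not tested. Nkd1 and Dkk3 had a higher mean in the high cells of both mice, and Notum, Sfrp1, Sfrp2, Dkk2 and Wif1 a lower one, where 25.4% of 17025 genes lay higher and 21.8% lower in the high cells of both mice, 47.3% in either direction. In mouse 2 the gaps of Sfrp1, Sfrp2 and Dkk2 were only -0.04, -0.05 and -0.05. Axin2 went opposite ways in the mice, Lef1 was at 0.28 in both classes of mouse 1 and at 0.19 and 0.08 in mouse 2, and Frzb had no counts.

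Nkd1 means were 5.83 in the high and 2.77 in the lower cells of mouse 1, and 4.44 and 3.81 in mouse 2. The gaps of 3.06 and 0.63 had the same sign and differed widely in size. The share of cells did not follow in mouse 2: Nkd1 was present in 92.6% of high and 60.9% of lower cells of mouse 1, and in 76.3% and 89.2% of mouse 2. Over single cells the Spearman rho of Nkd1 with Acta2 was 0.45 (n = 50 cells) and 0.13 (n = 75), as a description of cells that share an animal and differ in depth. In mouse 2 the cells with Acta2 from 8 to 11 had a mean Nkd1 of 4.83 (19 cells), above the high cells, and the 16 cells with Acta2 at 0 had 2.97. In mouse 1 these ranges had 3.32 (11 cells) and 3.32 (7 cells), below the high cells. In the sums Nkd1 had 205.8 and 136.4 CPM in high cells against 27.8 and 103.6 CPM in lower cells. The log2 fold change was 1.64 (SE 0.89, adjusted p 0.885 in edgeR), and it fell to 0.40 without mouse 1.

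Dkk3 means were 7.39 in the high and 5.95 in the lower cells of mouse 1, and 6.41 and 5.76 in mouse 2. It was present in 96.3% of high and 78.3% of lower cells of mouse 1, and in 94.7% and 75.7% in mouse 2. Both mice gave a higher share in the high cells. In mouse 2 the 19 cells with Acta2 from 8 to 11 had a mean of 7.14, above the high cells, and the 16 cells with Acta2 at 0 had 3.71, but in mouse 1 both ranges lay below the high cells, at 6.88 and 4.45. The sums did not show it, with 487 and 454 CPM in high and 584 and 421 CPM in lower cells and a log2 fold change of -0.08 (SE 0.38), which turned to 1.04 with limma on the cell means.

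Wif1 was all but absent from Acta2-high cells, in 1 of 27 and 0 of 38, the latter with an upper bound of 9.25%, and in 1 of 23 and 3 of 37 lower cells. Notum was present in 0 of 27 and 1 of 38 high cells and in 2 of 23 and 3 of 37 lower cells. These counts are small, and the intervals of the classes overlap for both genes. Sfrp2 had 0 and 40 counts in high and 1929 and 256 in lower cells, and Sfrp1 had 2.62 and 2.90 CPM in high and 103.2 and 9.70 CPM in lower cells. Dkk2 means were 0.02 and 0.21 in high against 0.75 and 0.25 in lower cells.

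**Figure D5:**
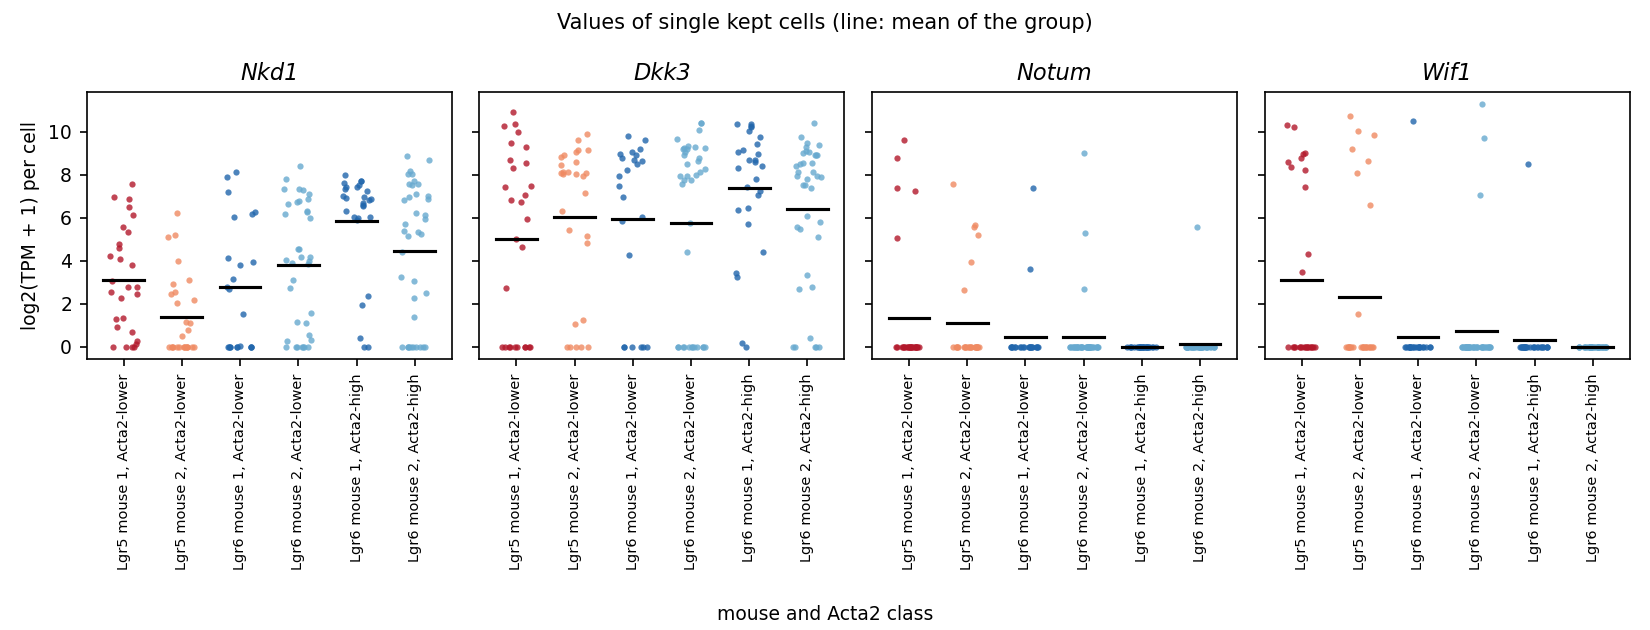
Log2(TPM + 1) of Nkd1, Dkk3, Notum and Wif1 (y axis) in single kept cells, by mouse and Acta2 class (x axis), with the mean of each group as a line; the 1 Acta2-high cell of the Lgr5 line is not drawn. The Wif1 points above 0 number 11 and 8 in the Lgr5 mice, against 5 for all Lgr6 cells.

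In edgeR, with the mouse as a block, 0 of 9 members passed between the Acta2 classes and 0 had an unadjusted p under 0.05, where 4 of 13529 genes (0.0296%) passed and 1039 had an unadjusted p under 0.05. The 4 were Sftpa1, Sftpc and Sftpd, lower in high cells, and Acta2 itself. Without the block the count was 0. DESeq2 called 944 genes, 7.9% of the 11955 counted for it, and 3 members. These were Sfrp1 at -3.54 (adjusted p 0.0409), Sfrp2 at -7.40 (adjusted p 6.97e-05) and Wif1 at -6.67 (adjusted p 0.000137). limma called 690 of 13529 genes (5.1%) and no member. Over all alternatives the adjusted p ran from 0.0409 to 1 for Sfrp1 and from 6.97e-05 to 1 for Sfrp2. The Wif1 counts in high cells come from 1 cell, of mouse 1. Without mouse 1 the high cells had no Wif1 counts, and the fitted value was -12.92, with a single mouse left. The median log2 fold change was -3.51 for the 9 members and 0.02 for all genes. The former is the value of Sfrp1 itself, of whose 1112 counts in the lower cells of mouse 1 a single cell held 1089, and it counts Notum, Sfrp2 and Wif1, without counts in the high cells of 1 mouse, at their fitted values. The Sfrp1 and Wif1 values turned sign when the threshold on Acta2 was 10.

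The third comparison returned to the lines with Acta2-lower cells alone, 28 and 28 in the Lgr5 mice against 23 and 37 in the Lgr6 mice, since the Lgr5 line held 1 Acta2-high cell. Erythroid genes had 334.24 and 343.67 against 0.267 and 2.09 CPM here, and alveolar fibroblast genes 243.92 and 161.3 against 528 and 923 CPM. Epithelial genes had 52200 and 28400 against 3230 and 21900 CPM, but 25700 and 29700 against 43800 and 34900 in mean summed TPM. Immune genes overlapped in CPM, with 1430 and 4450 against 11900 and 7360 in mean summed TPM. The part of these lists in the result was not tested. Wif1 was present in 39.3% and 28.6% of Lgr5 cells against 4.35% and 8.11% of Lgr6 cells, with means of 3.13 and 2.31 against 0.46 and 0.76. The lines did not overlap in these values. Notum kept its order, with means of 1.36 and 1.09 against 0.48 and 0.46, and shares of 17.9% and 21.4% against 8.70% and 8.11%. It did not in the sums, where 49.4 and 9.5 CPM against 6.41 and 10.2 CPM overlapped. The log2 fold change was 1.83 (SE 1.54, adjusted p 0.941 in edgeR), and it fell to 0.19 without Lgr5 mouse 1. Nkd1 did not stay apart among these cells, since its means of 3.10 and 1.40 in the Lgr5 mice lay on either side of the 2.77 of Lgr6 mouse 1, with Lgr6 mouse 2 at 3.81. Dkk3 overlapped as well, at 4.99 and 6.04 against 5.95 and 5.76. Lef1 stayed apart, with means of 1.10 and 0.73 against 0.28 and 0.08. However, 11 of the 13 cells of Lgr6 mouse 2 with Lef1 had a TPM of 0. The log2 fold change of Lef1 was 1.91 (SE 1.65, adjusted p 0.941 in edgeR). Axin2 overlapped, at 0.32 and 0.35 against 0.82 and 0.01 (log2 fold change -0.14, SE 2.04). So did Sfrp1, at 1.30 and 0.37 against 0.79 and 0.37 (-1.04, SE 1.54). Frzb was in 1 cell, of Lgr5 mouse 1.

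In the sums of Acta2-lower cells Wif1 had 305.8 CPM in Lgr5 mouse 2, above the 190 and 26.3 CPM of the Lgr6 mice. Lgr5 mouse 2 had the same cells and counts in the first comparison, where the scaling of that fit gave 321 CPM. Lgr5 mouse 1 lay between the Lgr6 mice, so that the lines overlapped. The log2 fold change was 0.95 (SE 0.94, adjusted p 0.951 in edgeR), and it ran from 0.13 to 3.51 over the alternatives. A single cell held the 1898 Wif1 counts of Lgr6 mouse 1, and a pair of cells held 2661 and 1181 of the 4215 of Lgr5 mouse 2. limma on the cell means, which gives each cell the same weight, had 2.11 (SE 0.48) with an adjusted p of 0.0429, and over the alternatives that p ran from 0.0429 to 1. Sfrp2 had 0 counts in both Lgr5 mice against 1929 and 256 for Lgr6, and was at least 248-fold higher in the Lgr6 sums, taken against a floor of 3 counts over the Lgr5 group, a bound that rests mostly on the 1 cell with 1897 counts. Dkk2 had 3.25 and 1.23 CPM against 165.9 and 0.891 CPM, which overlapped, and a log2 fold change of -5.21 (SE 2.0), which turned to 0.78 without the cells that held the most Axin2 and Dkk2 counts, an alternative chosen after seeing the data. In edgeR 0 of 9 members and 0% of 12958 genes passed, with 976 genes and 2 members, Sfrp2 and Dkk2, at an unadjusted p under 0.05. DESeq2 called 404 genes, 3.31% of the 12204 counted for it, and the members Sfrp2 and Dkk2. limma called 258 of 12958 (1.99%) and Wif1. The median log2 fold change was -0.18 for the 9 members, with Sfrp2 below it at the fitted value or at its bound, and 0.00 for all genes.

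Members were found together in most cells. Lgr5 cells had a median of 4 and 3 members, by mouse, and Lgr6 cells a median of 2 and 3, and 1 cell, in Lgr5 mouse 2, had none. At least 1 target was present with at least 1 antagonist in 28 of 29, 18 of 28, 39 of 50 and 65 of 75 cells of the mice in the order above. Nkd1 and Dkk3 shared cells about as often as their shares give, in 17, 11, 33 and 52 cells where independence gives 16.4, 12.3, 34.3 and 52.9.

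For the 6 members present in at least 10% of Lgr6 cells, the genes with the most similar pattern over cells were found by the mean of the Spearman rho within the Lgr6 mice (n = 50 and 75 cells). Nkd1 was most like Entpd1 (0.41), Hspb6 (0.40) and Lpp (0.37), and Dkk3 most like Ighmbp2 (0.38), Col1a1 (0.37) and Vim (0.36) among the 6631 genes compared. Axin2 was most like Dynlt3 (0.42), Zfp260 (0.37) and Cacfd1 (0.36), and Lef1 most like Trpm3 (0.38), Ttc19 (0.36) and Rhox8 (0.34). For Sfrp1 these were Rab2a (0.42), 4930427A07Rik (0.41) and D430019H16Rik (0.37), and for Dkk2 Calcrl (0.41), Zfp689 (0.41) and Il1rl1 (0.40). The mice often differed, as for Rhox8 (0.61 in mouse 1 and 0.08 in mouse 2) and Rab2a (0.65 and 0.19). These are descriptions over cells that share an animal and differ in depth, and for the sparse genes they rest on few cells.

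The wider pathway gave no gene past the threshold in edgeR in any of the 3 comparisons. Of 13 other targets and feedback genes 11 were tested between the lines, with a median of -0.35, of 12 other antagonists and their coreceptors 6, with a median of 1.24, and of 21 genes of the core machinery 21, with a median of -0.57. Beside the -0.05 of all genes these medians are descriptions. At an unadjusted p under 0.05 there was 1 gene in each list (Dact1, Sostdc1 and Dvl1), where 9.31% of all genes were. Between the Acta2 classes the medians were -0.56 (9 tested), 0.08 (7 tested) and 0.28 (21 tested) against 0.02 for all genes. Dact1, Myc and Rnf43, all 3 among the other targets, had an unadjusted p under 0.05, as 7.68% of all genes did. The antagonist and core lists had 0 such genes. Among Acta2-lower cells the medians were -0.66 (9 tested), 1.57 (6 tested) and -0.67 (21 tested) against 0.00. Dact1, Sostdc1 and Axin1, 1 in each list, had an unadjusted p under 0.05, as 7.53% of all genes did. Dact1, Sostdc1 and Rnf43 had no counts in 1 group, and with such genes at their bound each of these medians was the same to 2 decimals.

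A count above 0 can stand beside a TPM of 0 in these tables, in 87653 values over all wells, which limits what a share of cells with 1 to 3 counts says. With a TPM above 1 in place of a count, 30 of the 63 Lef1 cells and 32 of the 61 Dkk2 cells would count as having the gene, as would all 24 Wif1 and all 17 Notum cells.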

How the data were processed

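Single cells sorted from mouse lung were profiled with SmartSeq2, with 95 single-cell wells and 1 pool well for each of 2 Lgr5 and 2 Lgr6 mice (384 wells). The submitters' processing notes name bcl2fastq 2.17.1.14 and kallisto 0.43.0, with transcript values summed to genes. The deposited tables hold raw counts per well for 23422 genes, and, from the authors, log2(TPM + 1) values of these wells and of the 182 cells they kept. The columns of no sample numbered 0. The study's filter asks for a R26-Tom TPM above 32 and for Ptprc and Pecam1 at a TPM under 1, among other limits.

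With the mouse as replicate, counts were added up over its kept cells, and over each of its Acta2 classes. The classes were set at an Acta2 log2 value of 11, and a sum needed at least 3 cells. Each of the 3 comparisons was fitted over all genes with edgeR 4.0.16 in R 4.3.3 (TMM, filterByExpr, quasi-likelihood F test, Benjamini-Hochberg, threshold 0.05), with the mouse as a block between Acta2 classes. The same sums were tested with DESeq2 1.42.0, and means over cells with limma 3.58.1. The 3 tools were also tested on simulated data, and the outcome is not given here, so that no count of calls rests on it. Levels were compared by an exact permutation test of mouse means, and shares of cells carry exact 95% Clopper-Pearson intervals and were also taken after thinning to 99000 counts, which left out 1 and 3 Lgr5 cells and 13 and 2 Lgr6 cells. Median depth was 263129 and 272729 counts for Lgr5, and 332588 and 1537593 for Lgr6, with 26.7%, 25.0%, 32.3% and 37.5% of the counts on Rn45s. Folds against a group without counts use a floor of 3 counts over the group.

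The members and the lists were chosen with earlier results of these data known. By the rule for named genes, all 10 members are named in each comparison, other pathway genes are given by counts with those past the threshold named, and for each member in at least 10% of Lgr6 cells the 3 most similar genes are listed among those in at least 20% of these cells. Other pathway genes named at an unadjusted p under 0.05 were chosen after their values were seen. Markers of smooth muscle, alveolar fibroblasts, general mesenchyme, pericytes, epithelium, endothelium, immune cells, erythroid cells and mesothelium were checked, and some of these genes are expressed in several lung cell types. Alternatives were DESeq2, limma, genes with low counts kept, scaling by library size alone, thinned cells, leaving out cells with Hbb-bh1 (log2 of 5) or Epcam (log2 of 1), leaving out Rn45s, the block, Acta2 thresholds of 10 and 12, leaving out each mouse, a pseudocount of 0.1, and TPM above 1. Leaving out the cells with the most Axin2 and Dkk2 counts was chosen after seeing the data. Removed wells and pools were left out of the comparisons, as were the authors' scaled counts. Python 3.11.15, numpy 2.4.6, pandas 2.3.3, scipy 1.17.1 and matplotlib 3.10.9 were used.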

Additional observations from a re-analysis of the deposited data

Results flagged for a closer look

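Axin2 stood out in wells that the comparisons do not use. Among the 66 wells of Lgr5 mouse 1 that the authors' filter removed, 21 had a count of Axin2, or 31.8%, above the upper limit of 27.4% that the 3 of 29 kept cells of that mouse allow (10.3%), though the interval of the removed wells, 20.9 to 44.4, overlaps theirs. The median well removed there held 8267 genes, beside 4277 in kept cells, and 40 of the 66 had Ptprc and 42 had Pecam1 at a TPM of at least 1, which the filter does not allow in kept cells. In Lgr5 mouse 2 the removed wells had 16.4% (11 of 67) beside 14.3% of kept cells, and in the Lgr6 mice the removed wells had less, 6.67% and 10% beside 16% and 12%.

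Notum did so in Lgr6 mouse 2, where 3 of 20 removed wells had a count, or 15%, above the upper limit of 13.1% for its kept cells (5.33%). With 3 wells the interval is wide, 3.21 to 37.9, and overlaps that of the kept cells. In Lgr6 mouse 1 the share was 6.67% (3 of 45) beside 4.0% of kept cells, and in the Lgr5 mice 18.2% and 8.96% beside 17.2% and 21.4%. The removed wells differ from the kept cells in the number of genes and in the genes the filter used, and the part of this in either share was not tested.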

How the results depend on the processing

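Of 371 log2 fold changes of members under an alternative, 316 kept their direction and stayed short of the threshold, 15 kept it and passed the threshold, and 40 took the other direction. For what follows the cause was not tested unless stated. Lef1, Nkd1, Notum, Sfrp2 and Wif1 kept their direction between the lines, and among Acta2-lower cells, under each alternative that gave a value, but the size did not hold. Between the lines Wif1 (2.08) ran from 1.16 without Lgr5 mouse 2 to 4.05 without Lgr6 mouse 1, Nkd1 (-1.91) from -2.89 to -1.24 and Notum (2.86) from 0.94 with limma to 3.67. Among Acta2-lower cells Nkd1 (-1.15) fell to -0.01 and Wif1 (0.95) to 0.13 without Lgr6 mouse 2, and Notum (1.83) to 0.19 without Lgr5 mouse 1. The highest Wif1 value there over all alternatives was 3.51. Lef1, Nkd1, Notum, Sfrp2 and Dkk2 kept their direction between Acta2 classes, where Lef1 (0.44) fell to 0.05 with limma, and without Lgr6 mouse 1 Nkd1 (1.64) fell to 0.40 and Dkk2 (-3.87) to -0.15.

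Between the lines, where edgeR called 0 genes and 0 members, DESeq2 called 564 genes and 1 member, no filter 408 and 1, limma 634 and 1, and thinned cells 17 genes. Leaving out a mouse gave 0 to 34 genes, and the lone mouse of a line is assumed there to vary like the others. Dkk3 turned to 0.04 with DESeq2, 0.01 with library size and 0.38 without Epcam cells, and ran from -0.22 to 0.10 without a mouse. Dkk2 turned to 0.46 with limma and to 1.15 without the cells with the most Axin2 and Dkk2 counts, chosen after seeing the data, and ran from -4.79 to 1.38 without a mouse. Sfrp1 turned to -3.71 without Epcam cells, and ran from -3.29 to 2.21 without a mouse, as Axin2 did from -1.63 to 0.08. With a block that pairs mice of different lines, which share only a number, Sfrp1 turned to -0.50.

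Between Acta2 classes, where edgeR called 4 genes and 0 members, DESeq2 called 944 and 3, limma 690 genes, thinned cells 29, without Rn45s 7, and without Epcam cells 0. The counts were 11 at a threshold of 10 and 0 at 12. Without a block, though both sums come from the same mouse, the count was 0. Without a mouse 1.2e+02 genes, rounded, and 1 member were called in each case, in a fit that takes the spread from the Lgr5 mice as well. Dkk3 turned to 0.01 with library size, 0.07 with thinned cells, 1.04 with limma, 0.06 at a threshold of 12 and 0.23 without the cells with the most Axin2 and Dkk2 counts, and ran from -0.32 to 0.11 without a mouse, as Axin2 did from -2.94 to 6.54. At a threshold of 10 Sfrp1 turned to 4.61 and Wif1 to 0.26.

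Among Acta2-lower cells, where edgeR called 0 genes and 0 members between the lines, DESeq2 called 404 and 2, no filter 1.6e+02, rounded, and 2, and limma 258 and 1. Leaving out a mouse gave 6 to 74 genes and 0 to 2 members. Axin2 turned to 0.12 with library size, 0.56 with thinned cells, 0.94 at a threshold of 10 and 0.44 at 12, and to 1.40 with the block that pairs mice by number, and ran from -1.11 to 4.0 without a mouse. Dkk3 turned to 0.02 with library size, 0.01 with thinned cells, 0.12 without Epcam cells and 0.07 without the cells with the most Axin2 and Dkk2 counts, and ran from -0.46 to 0.15 without a mouse. Sfrp1 turned to 0.12 with thinned cells, 0.26 with limma and 4.38 at a threshold of 10, and ran from -4.70 to 1.64 without a mouse. Dkk2 turned to 0.27 with limma and 0.78 without the cells with the most counts, and ran from -6.23 to 1.36 without a mouse.

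Of 18 differences in level 10 moved within the spread between mice, 8 moved further and 2 of the 18 took the other sign: over cells with a count alone, Wif1 moved to -1.38 and Dkk3 to 0.16. Of 20 differences in the share of cells, 17 stayed within the spread, 3 moved further and 2 of the 20 took the other sign, both for Axin2, whose difference of -1.68 points between the lines moved to 3.44 with thinned cells and to 1.86 with a TPM above 1. Leaving out cells with Hbb-bh1 gave no value between the lines, since 0 and 2 Lgr5 cells remained. Depth limits Lef1 and Dkk2, most of whose cells hold 1 to 3 counts, and the share of cells with Lef1 in Lgr6 mouse 2 is 2.74% after thinning to 99000 counts, Rn45s included.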

Other observations

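Frzb, found in 1 of 57 kept Lgr5 cells (1.75%), was present in 11 of 66 and 5 of 67 removed Lgr5 wells (12%), and in 0 of 65 removed Lgr6 wells. The removed wells of the lines are not alike: the median well held 8267 and 5851 genes in the Lgr5 mice against 1180 and 1289 in the Lgr6 mice. Ptprc reached a TPM of 1 in 40 and 32 removed Lgr5 wells and in 1 and 2 removed Lgr6 wells, and Pecam1 in 42 and 41 against 0 and 0. The filter removed wells with either gene at that level, so that kept cells have none by choice. The part of this in the shares was not tested. Wif1 kept its order, in 28.6% of the Lgr5 and 6.15% of the Lgr6 wells beside 33.3% and 4.0% of kept cells. With the mice of a line pooled, the order turned for Nkd1 (73.7% and 20% beside 70.2% and 80.8% of kept cells) and Dkk3 (60.2% and 40% beside 73.7% and 86.4%). By mouse, however, the shares of kept cells with Nkd1 overlapped between the lines. Sfrp2 had 6.77% and 0% beside 1.75% and 3.2%, the latter from 1 and 4 kept cells. Axin2 had 24.1% and 7.69% beside 12.3% and 13.6%, and no order is given for its kept cells. In the pool wells, 1 per mouse, Dkk3 had log2 values of 8.43, 8.80, 8.02 and 6.74 in the order Lgr5 mouse 1 and 2, then Lgr6 mouse 1 and 2. Nkd1 had 2, 2, 2 and 254 counts in these pools, and Wif1 and Notum had 0 counts in each, where the pools hold 353310, 204948, 66586 and 2203576 counts.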
